A study of Mus musculus with 1483 samples.

Results

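The neuropeptide gene Cck, the cholecystokinin receptor gene Cckbr, the cannabinoid receptor gene Cnr1, the gamma-synuclein gene Sncg and the endocannabinoid enzyme genes Dagla, Napepld, Mgll and Faah were followed through single neurons of mouse visual cortex. These 8 genes were taken by name from a table of 45768 genes and 1483 cells. Cells came from the tissue labelled VISp, a usual abbreviation of primary visual cortex, of 33 C57Bl/6J mice. Each mouse carried an adeno-associated virus with a single enhancer in front of SYFP2, a yellow fluorescent protein, and cells that glowed were flow sorted one by one for SMARTer cDNA synthesis and sequencing. The enhancers were eHGT_017h, eHGT_019h, eHGT_023h, eHGT_058h, eHGT_078h, eHGT_079h, eHGT_128h, eHGT_140h and hDLXI56i with 3 mice each, eHGT_064h with 4 and eHGT_082h with 2. No group was without a virus, so each enhancer was set against the mean of the other 10, and a group holds only those cells that its enhancer labelled and the sort collected. The age of the mice is not given in the sources used here. Mice gave 32 to 53 cells each and 17123400 to 35856000 reads in all. The median cell held 586338 reads, in which 1 read is 1.71 counts per 1000000 reads (CPM), and a threshold of 100 CPM is 58.6 reads.

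Cholecystokinin is a peptide cut from a precursor by prohormone convertases and amidated before release, and in cortex it is made by many pyramidal cells and by a set of inhibitory basket cells. Those basket cells are known for dense CB1 receptor, the product of Cnr1, on their terminals. There the endocannabinoid 2-arachidonoylglycerol, made after postsynaptic activity by the diacylglycerol lipase that Dagla encodes, reduces transmitter release until monoacylglycerol lipase, the product of Mgll, removes it. The related lipid anandamide is made in part by the phospholipase of Napepld and is broken down by the hydrolase of Faah. Sncg names a subclass of cortical inhibitory neurons in which Cck and Cnr1 are usual marker genes.

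The promoters of Cck, Cnr1 and Sncg are shown because these 3 genes were found together in a small group of cells described further on. Each is the 150 bases before the annotated transcription start in RefSeq on GRCm38.p6, read in the gene's own direction. The gene Cck lies on chromosome 9 at 121489824-121495694 on the minus strand, Cnr1 on chromosome 4 at 33923171-33948831 on the plus strand and Sncg on chromosome 14 at 34370274-34374669 on the minus strand, all protein coding. For Cnr1, which has several annotated starts, the window before the start nearest the gene's upstream end among those in the table is given. Capitals mark matches on either strand to the TATA box letters TATAAA, the cyclic AMP response half-site TGACG and the GC box GGGCGG, which do not overlap one another here.
Cck chr9:121495695-121495844, minus strand: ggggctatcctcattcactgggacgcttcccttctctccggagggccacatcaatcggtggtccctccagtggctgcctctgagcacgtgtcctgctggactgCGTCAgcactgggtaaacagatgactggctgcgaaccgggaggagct
Cnr1 chr4:33924114-33924263, plus strand: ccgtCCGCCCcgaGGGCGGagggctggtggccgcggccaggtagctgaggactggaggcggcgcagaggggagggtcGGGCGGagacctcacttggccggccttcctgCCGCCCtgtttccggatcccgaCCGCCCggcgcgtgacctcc
Sncg chr14:34374670-34374819, minus strand: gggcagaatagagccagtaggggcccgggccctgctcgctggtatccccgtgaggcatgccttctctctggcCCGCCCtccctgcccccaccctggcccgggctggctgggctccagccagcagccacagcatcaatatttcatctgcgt
The Cck window held 1 half-site, on the opposite strand and starting 47 bases before the start. The Cnr1 window held 5 GC boxes and was 76% G or C, while the windows before the other 2 Cnr1 starts in the table held 0 and were 66.7% and 49.3% G or C. The Sncg window held 1 GC box, starting 78 bases before the start. None of the 3 printed windows held TATAAA. Of 32851 promoters in the table, windows of the same length held TATAAA in 7.57%, TGACG in 13.3% and GGGCGG in 28.6%, so a match describes the letters only.

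Cells were assigned to classes without the 8 genes. Cells with Gad1 or Gad2, the genes of GABA synthesis, at 10 CPM or more and Slc17a7, the gene of the vesicular glutamate transporter VGLUT1, under 10 CPM were called GABAergic (1125 cells), and cells with Slc17a7 and neither Gad gene glutamatergic (278 cells). A further 79 cells carried both and 1 carried neither. GABAergic cells with exactly 1 of Pvalb, Sst, Vip and Lamp5 at 100 CPM or more formed the Pvalb (575 cells), Sst (214), Vip (50) and Lamp5 (154) classes. The remaining GABAergic cells were 111 several-marker cells, of which 108 had Pvalb with Sst, and 21 no-marker cells. Glutamatergic cells were split by Rorb and Fezf2, transcription factors of intratelencephalic and of deep-layer projection neurons, at 30 CPM.

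Sncg reads were found in few cells, 19 of 1125 GABAergic and 0 of 278 glutamatergic cells, whereas each of the other members had reads in 638 or more GABAergic cells. Sncg reached 100 CPM in 14 of 1125 GABAergic cells (1.24%) and in 0 of 278 glutamatergic cells, a count that allows a share of up to 1.08%. Cck reached 100 CPM in 456 GABAergic cells (40.5%) and in 235 glutamatergic cells (84.5%). Its receptor gene Cckbr did so in 98 GABAergic cells (8.71%) and 112 glutamatergic cells (40.3%). Cnr1 did so in 284 GABAergic cells (25.2%) and 105 glutamatergic cells (37.8%). For the breakdown enzymes the order of the 2 cell kinds differed. Mgll reached 100 CPM in 757 GABAergic cells (67.3%) and 112 glutamatergic cells (40.3%), Faah in 136 (12.1%) and 177 (63.7%). The synthesis genes were low, with Dagla at 100 CPM in 0 GABAergic and 8 glutamatergic cells and above 0 in 794 and 223 of them. Napepld reached 100 CPM in 20 GABAergic and 10 glutamatergic cells.

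Between the 11 enhancers 7 of the 8 members differed, Napepld being the exception (limma moderated F test on log2(mean CPM per mouse + 1), Benjamini-Hochberg adjusted p = 0.347 for Napepld and between 1.30e-11 for Cckbr and 0.000141 for Dagla for the others). Of 18932 genes tested, 53.4% differed, so this count says little about the members as a set. Each enhancer was then contrasted with the mean of the other 10. A gene counted as called when its adjusted p was below 0.05 and its log2 difference was 1 or more in size, and members were called 20 times. Beside each count of members stands the share of all genes called in the same direction. The eHGT_017h mice had 2 members higher (3.78%) and 0 lower (1.41%), the eHGT_019h mice 3 higher (5.78%) and 1 lower (3.83%), and the eHGT_058h mice 4 higher (9.36%) and 0 lower (3.15%). The eHGT_078h mice had 2 higher (8.99%) and 1 lower (5.36%), the eHGT_064h mice 0 higher (0.676%) and 1 lower (1.84%), and the eHGT_079h mice 0 higher (0.433%) and 1 lower (1.43%). The eHGT_082h mice had 1 higher (0.93%) and 0 lower (0.745%), the eHGT_128h mice 0 higher (0.961%) and 2 lower (3.78%), and the hDLXI56i mice 1 higher (2.34%) and 1 lower (0.766%). No member was called in either direction for eHGT_023h (0.586% and 0.0634%) or for eHGT_140h (1.44% and 3.97%). The enhancers labelled different cells. GABAergic cells were 26 of 120 in eHGT_058h and 2 of 140 in eHGT_078h. Pvalb class cells were 120 of 147 in eHGT_128h and 126 of 137 in eHGT_140h. Lamp5 class cells were 83 of 128 in eHGT_019h, and 61 Sst and 26 Vip class cells were among 118 in eHGT_017h. Levels by enhancer are means over these mixtures, and comparisons within classes follow further on.

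Cck was called in 4 enhancers. In eHGT_058h mice its mean CPM was 809, 1160 and 784, a mean of 918 ± 210 (SD, n = 3) against 459 over the other enhancers (log2 difference 1.52, SE 0.37, adjusted p = 0.00228). In eHGT_064h mice it was 76.9, 101, 124 and 110 CPM, a mean of 103 ± 20 against 541 (-1.93, SE 0.32, adjusted p = 0.000495). All 4 eHGT_064h mice lay below every eHGT_058h mouse. In eHGT_128h mice it was 165, 116 and 226 CPM against a mean of 534 (-1.19, adjusted p = 0.0352), a call that was lost without any 1 of these mice, without the filter on low genes and among the 24 mice whose library names start with G. In eHGT_078h mice the values were 1242, 2104 and 1804 CPM (log2 difference 2.50).

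Cckbr, which encodes the cholecystokinin receptor of brain, followed a different order of enhancers. It was 78.3, 91.9 and 91.8 CPM in eHGT_058h mice (mean 87.4 ± 7.81 against 41.7, log2 difference 1.40, adjusted p = 5.08e-06). It was 92.9, 80.6 and 90.6 CPM in eHGT_078h mice (mean 88.0 ± 6.52 against 41.6, 1.41, adjusted p = 3.26e-06). The lowest values were those of eHGT_019h, at 3.88, 2.95 and 6.56 CPM (mean 4.47 ± 1.88 against 50.0, -3.07, SE 0.21, adjusted p = 4.14e-12). The hDLXI56i mice had 15.6, 9.30 and 22.3 CPM (mean 15.7 ± 6.52 against 48.8, -1.32, adjusted p = 0.000101). Neither of these groups overlapped the eHGT_058h or eHGT_078h mice.

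Cnr1 was highest in eHGT_017h mice, at 458, 393 and 1103 CPM (mean 651 ± 392 against 120, log2 difference 2.89, SE 0.50, adjusted p = 0.000352). The eHGT_019h mice had 200, 522 and 469 CPM (mean 397 ± 173 against 146, 2.15, SE 0.50, adjusted p = 0.00234), so the ranges of these 2 groups overlapped. The eHGT_128h mice were even at 22.9, 25.7 and 26.7 CPM (mean 25.1 ± 1.93 against 183, -2.05, adjusted p = 0.00859), and this call was lost without any 1 of them. In eHGT_079h mice Cnr1 was 5.11, 86.5 and 56.8 CPM (mean 49.5 ± 41.2 against 180, -1.75, adjusted p = 0.0479). That call was lost in 28 of 40 alternatives, and without the mouse at 5.11 CPM the log2 difference was -0.57.

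Sncg reads came from few mice and from 21 of 1483 cells, so several mouse means rest mostly on 1 cell. Sncg was 16.6, 13.2 and 35 CPM in eHGT_017h mice (mean 21.6 ± 11.7 against 3.49, log2 difference 3.45, SE 0.54, adjusted p = 6.70e-05). Most of the 16.6 CPM came from 1 cell with both Gad and Slc17a7, at 582 CPM. In eHGT_019h mice it was 0.254, 23.6 and 20.2 CPM (mean 14.7 ± 12.6 against 4.18, 2.07, adjusted p = 0.00495), with a log2 difference of 1.32 or 1.42 and no call without either of the mice above 20 CPM, and of 0.78 with a pseudocount of 10. The 20.2 CPM came almost wholly from 1 cell at 902 CPM. The 2 eHGT_082h mice had 14.3 and 12.9 CPM (mean 13.6 ± 0.987 against 4.29, 2.89, adjusted p = 0.0136). Each of these 2 values came from 1 cell, at 573 and 607 CPM. The eHGT_082h call was lost with a pseudocount of 10 (0.90), among the mice with G libraries (2.78) and without either mouse (2.82 and 2.96). The hDLXI56i mice had 14.2, 0 and 5.43 CPM. Sncg was at 0 in every mouse of eHGT_023h, eHGT_058h, eHGT_064h, eHGT_079h, eHGT_128h and eHGT_140h, and at 0.130 CPM in 1 eHGT_078h mouse.

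Among the enzymes, Mgll was called in 3 enhancers. It was 590.0, 270 and 337 CPM in eHGT_019h mice (mean 399 ± 168 against 148, log2 difference 1.5, SE 0.18, adjusted p = 2.58e-07) and 381, 351 and 223 CPM in hDLXI56i mice (mean 318 ± 84.2 against 156, 1.19, adjusted p = 7.39e-05). In eHGT_078h mice it was 56.3, 37.1 and 83.7 CPM (mean 59.0 ± 23.4 against 182, -1.51, adjusted p = 9.46e-08), below every mouse of the other 2 groups. Faah was higher in eHGT_058h mice, at 125, 110 and 166 CPM (mean 134 ± 28.9 against 59.9, 1.20, SE 0.16, adjusted p = 9.05e-07). Dagla was 21.1, 31.4 and 31 CPM in the same mice (mean 27.8 ± 5.81 against 13.4, 1.05, SE 0.20, adjusted p = 0.000114). Its difference came below the log2 limit of 1 with a pseudocount of 10 (0.71), among the mice with G libraries (0.89) and without 1 mouse (0.95) or another (0.96). Napepld ranged from 6.54 CPM in an hDLXI56i mouse to 26.8 CPM in an eHGT_058h mouse.

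**Figure D1:**
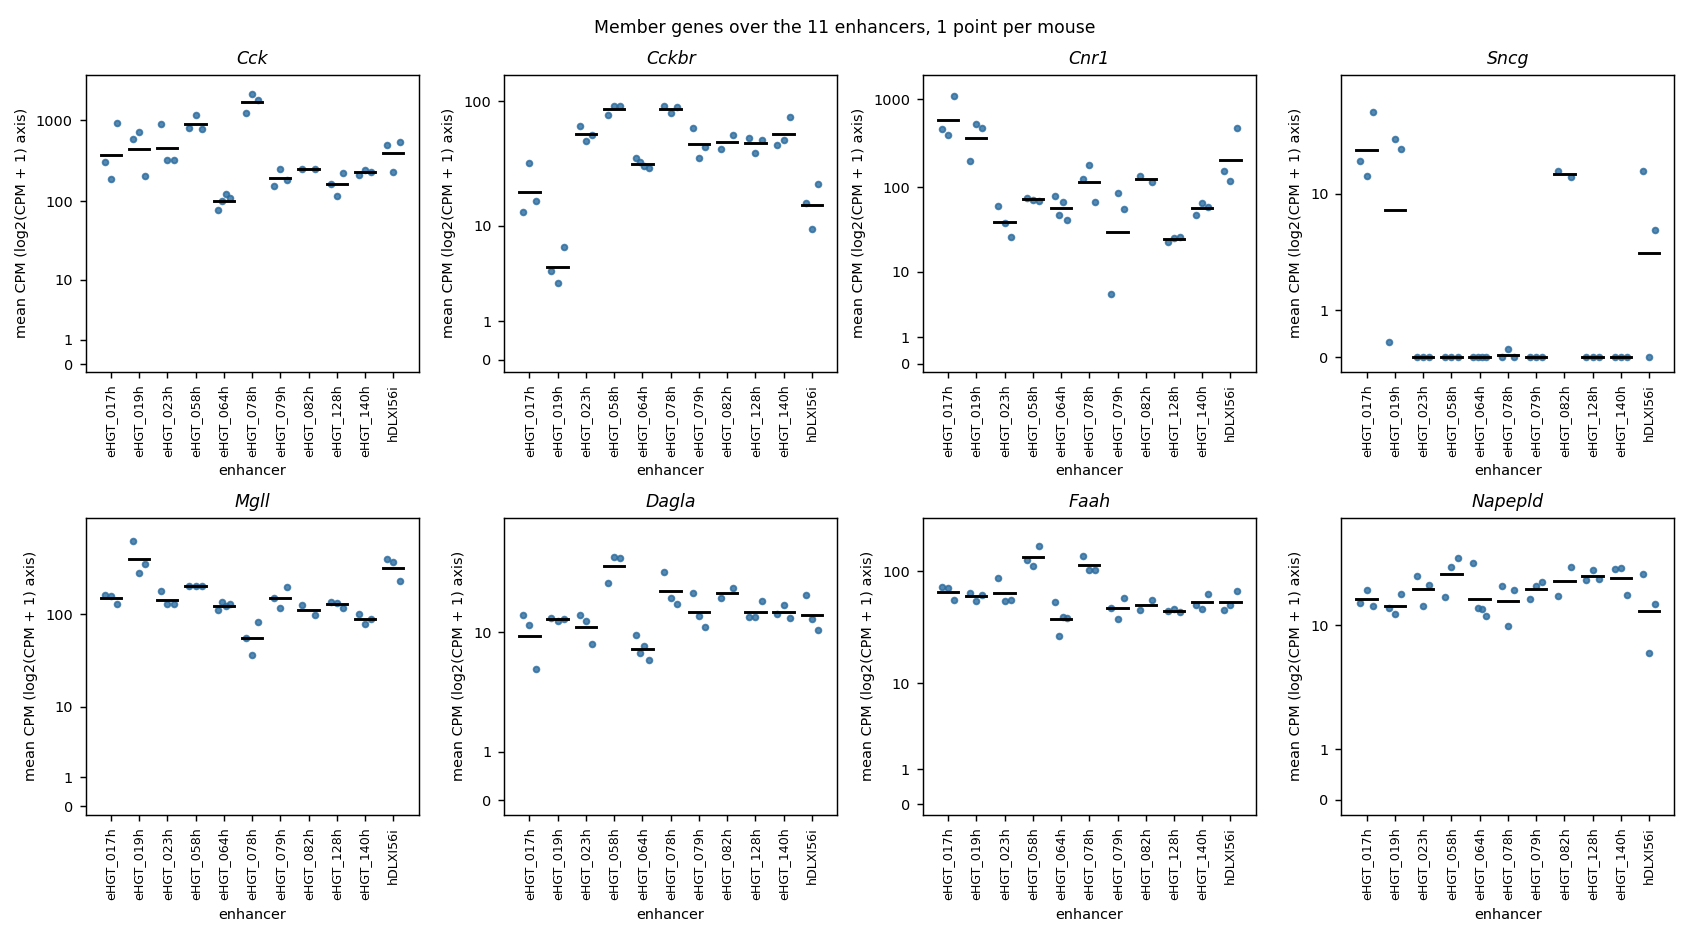
Mean CPM of each member per mouse (log2(CPM + 1) axis) by enhancer. Each point is 1 mouse, and black bars are the means of the log2 values. Sncg lies above 10 CPM in mice of eHGT_017h, eHGT_019h, eHGT_082h and hDLXI56i, while Cck is highest in the eHGT_078h mice, at 1242 to 2104 CPM.

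Between classes, all 8 members differed (limma with the mouse as a random block over 80 profiles of at least 5 cells, 10 classes and 33 mice, adjusted p from 1.14e-29 for Cck to 0.00186 for Sncg), as did 66% of 22748 genes. Only 5 of the 8 were called with profiles of at least 10 cells. Set against the mean of the other 9 classes, the Vip class had 3 members higher (Cck, Cnr1 and Sncg, where 5.39% of genes were higher) and 3 lower (Cckbr, Dagla and Napepld, 6.29%). The Lamp5 class had 2 higher (5.1%) and 1 lower (4.3%), and the Pvalb class 1 higher (4.42%) and 1 lower (5.55%). The Sst class had 0 higher (3.26%) and 1 lower (3.64%), and the several-marker cells 0 higher (3.01%) and 2 lower (6.5%). Cells with both Gad and Slc17a7 had 1 higher (3.51%) and 1 lower (2.01%). Among glutamatergic classes, cells with neither Rorb nor Fezf2 had 3 higher (6.43%) and 1 lower (4.03%), Fezf2 cells 1 higher (4.11%) and 1 lower (3.42%), Rorb cells 3 higher (9.97%) and 1 lower (4.62%), and cells with Rorb and Fezf2 3 higher (8.6%) and 1 lower (4.76%).

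Cck was highest in glutamatergic cells with neither Rorb nor Fezf2, where 7 mice ranged from 2387 to 3018 CPM with a median of 2776 (mean 2725 ± 269 against 456, log2 difference 4.33, SE 0.49, adjusted p = 1.51e-11). Rorb cells followed with 919.6 ± 392 CPM (n = 4, against 657, 2.52, adjusted p = 0.00128). By log2 difference the Vip class came next, although its mean CPM was above that of Rorb cells, with mice at 428, 2308, 80.2 and 1585 CPM (mean 1100 ± 1031 against 636, 1.83, SE 0.64, adjusted p = 0.0305). This Vip call was lost without the eHGT_017h mouse at 2308 CPM (1.24), without the hDLXI56i mouse at 1585 CPM (1.39), with the mouse as a fixed block (1.10), with a pseudocount of 0.1, with markers at 30 CPM and with classes by the highest marker (1.07). Cck was also carried by the Lamp5 class, at 16.9 to 688 CPM with a median of 318 over 7 mice, and by the Pvalb class, at 58.3 to 487 CPM with a median of 217 over 21 mice. The Sst class was far lower, at 0 to 13.9 CPM with a median of 2.35 over 12 mice (mean 5.15 ± 5.42 against 758, -6.25, SE 0.40, adjusted p = 6.00e-23). Several-marker cells, mostly with both Pvalb and Sst, were like it at 0 to 28.3 CPM (mean 5.11 ± 7.94 against 758, -6.47, adjusted p = 2.40e-24). With the 10 classes put in order of level, the step that passed the test was Pvalb over Sst (log2 difference 5.77, adjusted p = 9.29e-19), and no other neighbours differed.

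Cckbr was at 0 reads in all 50 Vip class cells, against a mean of 55.2 CPM over the other classes. With 27787811 reads in those cells, 3 reads would be 0.108 CPM, so Cckbr was at least 511-fold lower. In the Lamp5 class it was 0 to 6.45 CPM (mean 2.0 ± 2.57, n = 7, against 55.0, log2 difference -3.56, adjusted p = 1.07e-14). The Pvalb class was the highest of the GABAergic classes, at 24.5 to 76.4 CPM with a median of 48.8 (mean 51.3 ± 14, n = 21, 1.45, SE 0.22, adjusted p = 4.94e-08). Since the mean CPM over the other classes was 49.5, that difference holds on the log scale and was 0.64 with a pseudocount of 10. All 4 glutamatergic classes were higher, led by Rorb cells at 120 ± 42 CPM (n = 4, against 41.9, 2.80, adjusted p = 2.20e-07) and cells with neither Rorb nor Fezf2 at 110 ± 30.7 CPM (n = 7, against 43, 2.67, adjusted p = 3.36e-10). Among neighbours in the order, Pvalb differed from several-marker cells (1.29, adjusted p = 0.00065).

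Of the 10 classes tested, Cnr1 was highest in the Vip class, where the 4 mice had 1215, 2230, 913 and 1093 CPM (mean 1363 ± 591 against 134, log2 difference 4.43, SE 0.69, adjusted p = 4.25e-07). No mouse of the other 9 classes tested reached 913 CPM, while the no-marker cells of 1 mouse had 1747 CPM. Cells with both Gad and Slc17a7 had 496 ± 338 CPM (n = 4, against 230, 2.59, adjusted p = 0.00675), which was lost with the mouse as a fixed block (1.75), with profiles of at least 3 cells (0.70) and without the eHGT_017h mouse (2.19) or 1 of the eHGT_019h mice (2.37). The Lamp5 class had 53.6 to 491 CPM with a median of 160 over 7 mice (1.46, adjusted p = 0.0391), a call lost in 10 of 43 alternatives. That difference too holds on the log scale, since the mean was 232 CPM against 259. The Pvalb class had 0 to 74.6 CPM (mean 33.4 ± 22.7, n = 21, against 282, -1.84, adjusted p = 9.36e-06). Several-marker cells had 2.54 to 98.6 CPM (35.8 ± 32.1, n = 13, against 281, -1.75, adjusted p = 0.000517), a call lost with the mouse as a fixed block (-1.67) and with profiles of at least 3 cells (-1.04). The Sst class lay above them at 14.8 to 213 CPM (median 105), and Sst over several-marker was the step between neighbours that passed the test (1.64, adjusted p = 0.0427).

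In glutamatergic cells Cnr1 levels varied by class. Cells with neither Rorb nor Fezf2 had 83.2 to 274 CPM (mean 199 ± 76.6, n = 7, against 263, log2 difference 1.54, adjusted p = 0.0236), a call lost in 5 of 43 alternatives. It was higher on the log scale and lower in mean CPM. Rorb cells had 11.1 ± 10.7 CPM (n = 4, against 284, -3.19, adjusted p = 0.000145) and cells with Rorb and Fezf2 13.3 ± 16.3 CPM (n = 5, against 284, -3.55, adjusted p = 3.04e-06). The mice of these 2 classes, all under 40 CPM, did not overlap those of the cells with neither.

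Sncg was at 0 reads in every mouse of 7 of the 10 classes, among them Pvalb, Sst and several-marker. In the Pvalb class 0 of 575 cells reached the threshold, which allows a share of up to 0.522%. The 4 Vip class mice had 14.3, 55.4, 0 and 0 CPM (mean 17.4 ± 26.2 against 3.04, log2 difference 2.12, SE 0.51, adjusted p = 0.000943). Without the eHGT_017h mouse at 55.4 CPM the log2 difference was 0.99 and the call was lost, as it was with a pseudocount of 10 (0.85) and with the mouse as a fixed block (1.34). The no-marker cells, which had 1 mouse with at least 5 cells and so no test, had 142 CPM of Sncg, 1747 CPM of Cnr1 and 577 CPM of Cck in that mouse.

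The enzyme that removes 2-arachidonoylglycerol and the one that makes it differed in their classes. Mgll was highest in the Lamp5 class, at 292 to 706 CPM with a median of 519 over 7 mice (mean 515 ± 147 against 159, log2 difference 1.94, SE 0.14, adjusted p = 8.76e-20), and fell in cells with neither Rorb nor Fezf2 (43.6 ± 16.7 CPM, n = 7, against 211, -1.99, adjusted p = 1.11e-20) and in Fezf2 cells (31.8 ± 9.52 CPM, n = 3, against 212, -2.40, adjusted p = 7.51e-16). In the order of levels Lamp5 exceeded the cells with both Gad and Slc17a7 (0.94, adjusted p = 0.00474) and Pvalb exceeded the cells with neither Rorb nor Fezf2 (1.52, adjusted p = 1.06e-13). Dagla was highest in cells with Rorb and Fezf2 (41.5 ± 10.8 CPM, n = 5, against 14.2, 1.68, adjusted p = 5.75e-05) and in Rorb cells (33.4 ± 11.4 CPM, n = 4, against 15.1, 1.38, adjusted p = 0.00319, and 0.88 with a pseudocount of 10). Of the 10 classes it was lowest in the Vip class, at 10.8, 0.934, 14.9 and 5.26 CPM (mean 7.96 ± 6.12 against 18, -1.18, adjusted p = 0.0189). That fall was lost with a pseudocount of 10 (-0.58), with the mouse as a fixed block (-1.15), and without the eHGT_017h mouse at 0.934 CPM (-0.57) or the hDLXI56i mouse (-1.14).

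Of the anandamide genes, Faah rose in cells with Rorb and Fezf2 (146 ± 31 CPM, n = 5, against 79.3, log2 difference 1.03, adjusted p = 1.68e-05), which came under the log2 limit in 5 of 42 alternatives (0.78 to 0.99). Its class means ranged down to 43.8 ± 13.4 CPM in several-marker cells, and no neighbours in its order differed. Napepld fell in the Vip class (6.71 ± 6.61 CPM, n = 4, against 18.5, -1.59, adjusted p = 0.00156), with -0.76 and no call at a pseudocount of 10 and -1.19 and no call without the hDLXI56i mouse. The means of the other 9 classes tested lay between 9.24 ± 3.10 CPM in Fezf2 cells and 28.5 ± 18.4 CPM in cells with Rorb and Fezf2, with no step between neighbours that passed the test.

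**Figure D2:**
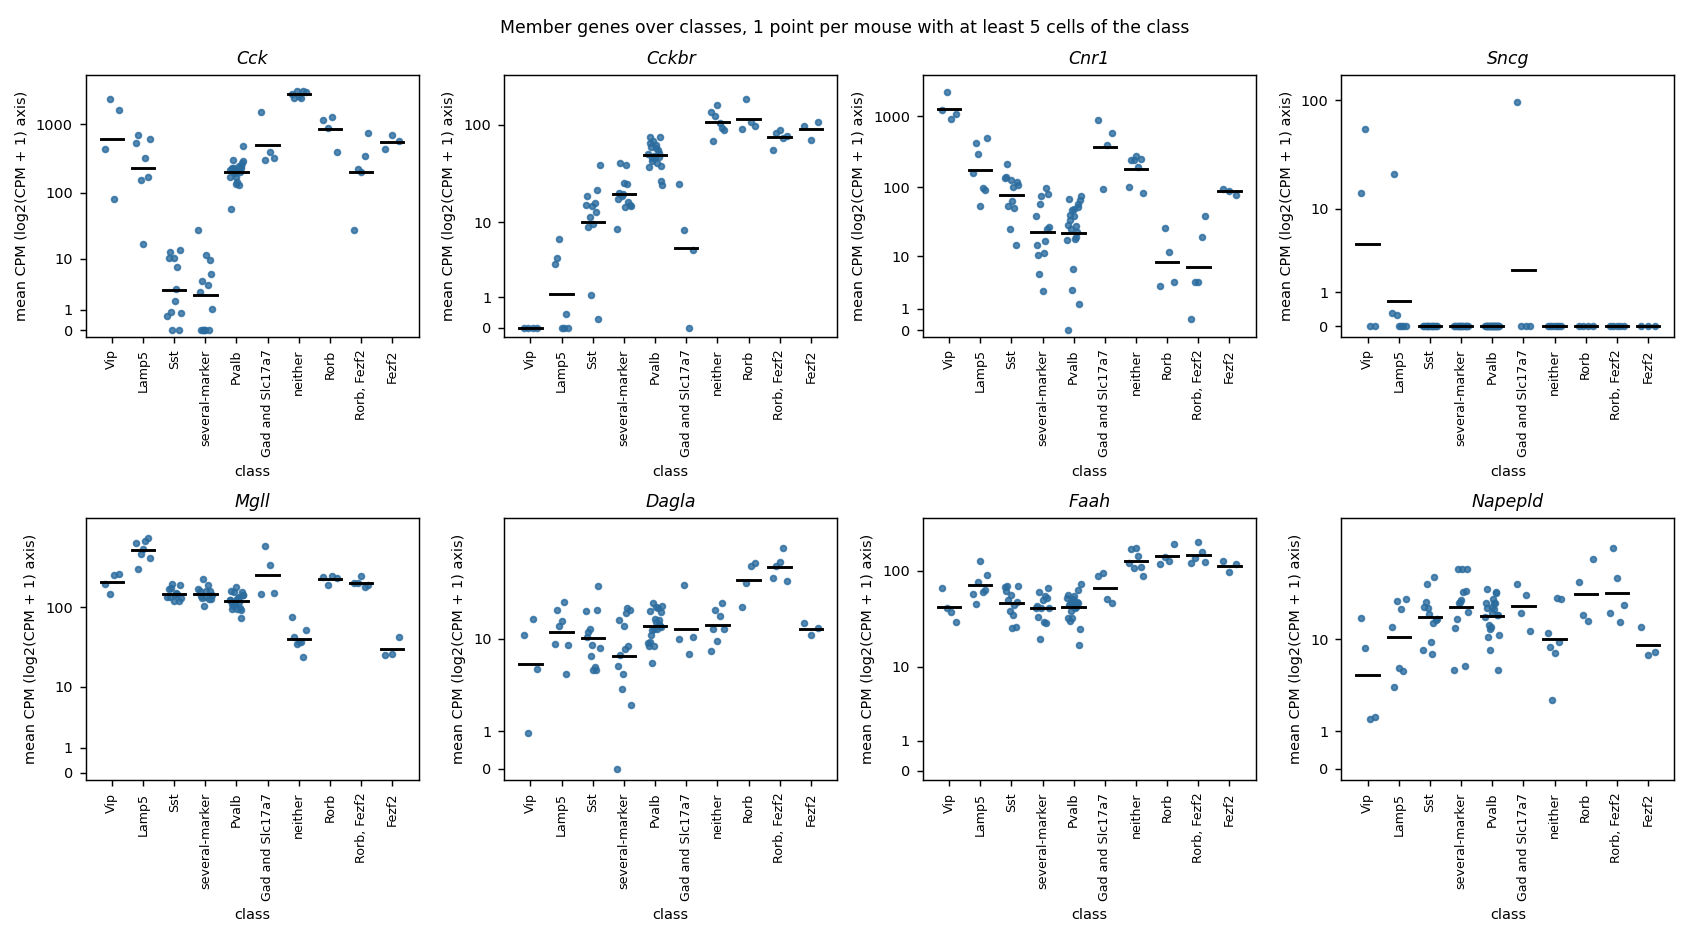
Mean CPM of each member per class and mouse (log2(CPM + 1) axis), for profiles of at least 5 cells in the 10 classes tested, without the no-marker cells. Points are mice and black bars the means of the log2 values; the label "Gad and Slc17a7" stands for cells with both and "neither" for glutamatergic cells with neither Rorb nor Fezf2. Of these classes Cnr1 is highest in the 4 Vip class mice, at 913 to 2230 CPM, where Cckbr is at 0 in all of them.

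Enhancers were also compared within the Pvalb, Sst and several-marker classes, the 3 with enough enhancers and mice, and none of the 7 members tested there was called. Sncg, at 0 in these classes, was not tested, nor were the Vip and Lamp5 classes. Over 7 enhancers and 20 mice of the Pvalb class the smallest adjusted p was 0.0827, for Cck, followed by 0.123 for Mgll and 0.242 for Cckbr, while 1.28% of 16424 genes were called. At an unadjusted p under 0.05 these members passed with p = 0.00171, 0.00385 and 0.0163. Without hDLXI56i mouse MouseID-400157, Cck, Mgll and Faah were called (F = 5.87, 4.93 and 5.15), and without eHGT_079h mouse MouseID-475241 Mgll was (F = 7.27). Over 4 enhancers and 11 mice of the Sst class Cnr1 had the smallest adjusted p, 0.117 (unadjusted 0.000713), with 0.16% of genes called. In several-marker cells the smallest was 0.886, with 0.00627% of genes called. A p above the threshold does not show that the levels were equal.

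Other genes of the same pathways were counted class by class. The shares of all genes called there were 5.39% higher and 6.29% lower in the Vip class, 6.43% and 4.03% in cells with neither Rorb nor Fezf2, 4.42% and 5.55% in the Pvalb class, 5.1% and 4.3% in the Lamp5 class, 9.97% and 4.62% in Rorb cells and 8.6% and 4.76% in cells with Rorb and Fezf2. Of 9 tested genes of the cholecystokinin list, which holds Cckbr, 3 rose and 1 fell in the Vip class (median log2 difference 0.08, against -0.12 over all genes). The risers were Pam, the enzyme of peptide amidation, at 482 ± 275 CPM (n = 4) against 154 (1.82), Pcsk1, a prohormone convertase, at 206 ± 159 against 87.3 (1.70), and the granin Scg2 at 2417 ± 1230 against 1026 (1.54). In cells with neither Rorb nor Fezf2, 4 of 9 rose and 0 fell (median 0.94, against -0.02), among them the convertase Pcsk2 at 557 ± 31 CPM (n = 7) against 127 (2.77). The Pvalb class had 2 higher and 2 lower, and the convertase genes were the lower ones. Pcsk1 was 6.52 ± 4.54 CPM (n = 21) against 109 (-3.28), and Pcsk2 15 ± 9.30 CPM against 187 (-3.09). The Lamp5 class had 0 higher and 2 lower, Pcsk1 being 7.52 ± 4.62 CPM (n = 7) against 109 (-3.07).

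Of 8 synthesis genes, 0 rose and 3 fell in the Vip class (median log2 difference -0.55), namely Dagla, Napepld and Abhd4, a lipase of an alternative route to anandamide, at 0.232 ± 0.277 CPM (n = 4) against 10.8 (-2.87). Rorb cells had 3 higher and 0 lower (median 0.56), with Plcb1, a phospholipase that supplies diacylglycerol, at 668 ± 134 CPM (n = 4) against 332 (1.16). Cells with Rorb and Fezf2 had 3 higher and 1 lower, with Plcb1 at 717 ± 151 CPM (n = 5) against 327 (1.25) and the related Plcb4 at 10.9 ± 6.72 CPM against 64.8 (-2.46). The second diacylglycerol lipase gene, Daglb, rose in cells with neither Rorb nor Fezf2 (88.4 ± 19.8 CPM, n = 7, against 40.2, 1.24), where Dagla was 13.7 ± 4.54 CPM. In the Lamp5 class 2 of 8 rose, Plcb4 (109 ± 24.3 CPM, n = 7, against 53.8, 1.29) and the phospholipase gene Pla2g4e (33.0 ± 6.27 CPM against 16.1, 1.38).

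Of 8 breakdown and carrier genes, 0 rose and 0 fell in the Vip class, 1 rose in the Lamp5 class (Mgll) and 1 fell in the Pvalb class. That gene was Fabp5, a fatty acid binding protein that carries anandamide, at 30.4 ± 10.5 CPM (n = 21) against 77.7 (log2 difference -1.31). Ptgs2, which encodes cyclooxygenase 2 and can oxygenate endocannabinoids, was 41.5 ± 60.0 CPM (n = 7) in cells with neither Rorb nor Fezf2 against 1.6 (2.89), with an SD above its mean. Among receptors and partners, Cnr1 was the gene called in the Vip class, 1 of 6.

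Which GABAergic cells carried Cck, Cnr1 and Sncg together was then counted per cell. All 3 reached 100 CPM in 13 of 1125 GABAergic cells (1.16%), from 8 mice. Of these triple-positive cells 8 were of the Vip class, 4 were no-marker cells and 1 was of the Lamp5 class, and 0 were Pvalb, Sst or several-marker cells. Another such cell, from eHGT_017h mouse MouseID-406074, carried Gad and Slc17a7 together and was not counted as GABAergic. All 13 had Adarb2 and none had Lhx6 at 10 CPM, genes that mark cortical interneurons of caudal and of medial ganglionic eminence origin. Of the 1125 GABAergic cells 895 had Lhx6 alone. The number was 15 at a threshold of 10 CPM for the 3 genes, 14 at 30 and 7 at 300, and 14 after each cell was thinned to 100000 reads, which left out 16 shallower cells.

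Sncg almost always came with both of the other genes, but neither of them needed it. Of the 14 GABAergic cells with Sncg, 14 had Cnr1 and 13 had Cck. The exception was a no-marker cell of eHGT_019h mouse MouseID-401668 with 902 CPM of Sncg, 1785 CPM of Cnr1, 0 CPM of Cck and 622 CPM of Calb2, the calretinin gene. Cck and Cnr1 were found together in 111 GABAergic cells, 98 of them without Sncg. These 111 were 42 Pvalb, 31 Lamp5, 22 Vip, 10 no-marker, 3 Sst and 3 several-marker cells, of which 60 had Adarb2 alone and 49 Lhx6 alone. Of the 456 Cck cells 24.3% had Cnr1, and of the 284 Cnr1 cells 39.1% had Cck.

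The pairing differed by class. All 50 Vip class cells had Cnr1 at 100 CPM, 22 of them with Cck and 8 of those with Sncg. In the Pvalb class 357 of 575 cells had Cck, 59 had Cnr1 and 42 had both. The Sst class had the opposite, with 5 of 214 cells with Cck and 70 with Cnr1. The Lamp5 class had 56 of 154 cells with Cck, 71 with Cnr1 and 31 with both. In glutamatergic cells all 105 with Cnr1 also had Cck, out of 235 with Cck. Spearman's rho between Cck and Cnr1 was -0.08 over the 1125 GABAergic cells, 0.70 over the 50 Vip cells, 0.02 over the 575 Pvalb cells, 0.06 over the 154 Lamp5 cells and 0.62 over the 278 glutamatergic cells. These are descriptions over cells that share mice and whose reads are counted against 1 total per cell. In glutamatergic cells Cnr1 and Mgll ran against each other (rho = -0.69), as they did in the Lamp5 class (-0.62).

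Cnr1 at 100 CPM was used to choose the triple-positive cells, so its level in them is described and was not tested. A cut of 2000 CPM lies just under the lowest Cnr1 value of those cells. At or above it there were 19 GABAergic cells, 11 Vip, 7 no-marker and 1 Lamp5. Of these, 18 had Cck and 13 had Sncg at 100 CPM, but the choice of the cut placed all 13 triple-positive cells above it. The GABAergic Sncg cell without Cck, at 1785 CPM of Cnr1, fell below the cut. In the 13 triple-positive cells Cnr1 was 2243 to 5507 CPM, Cck 1466 to 10960 CPM and Sncg 114 to 711 CPM. They held 193663 to 741198 reads each. Those of the Vip class held 1711 to 50573 CPM of Vip, and of the remaining 5 cells 1 carried Lamp5 at 312 CPM and 4 no class marker at 100 CPM. Slc17a8, the gene of the vesicular transporter VGLUT3 found in some cholecystokinin basket cells, was at 0 in all 13. The serotonin receptor gene Htr3a was at 0 in the Lamp5 cell and at 54.2 to 5980 CPM in the other 12.

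**Figure D3:**
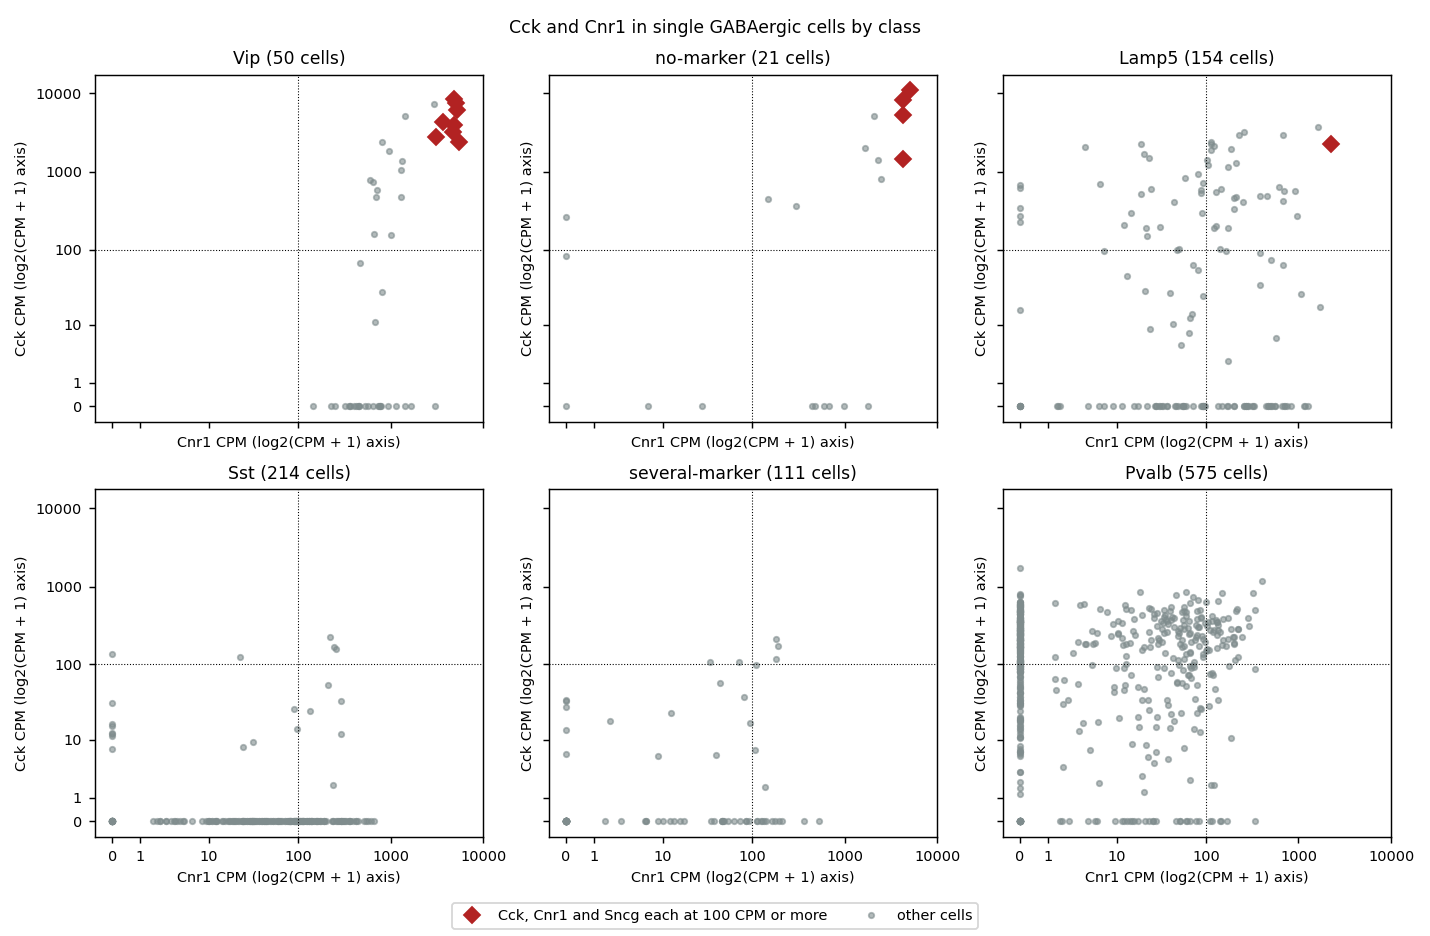
Cck against Cnr1 in each of the 1125 GABAergic cells, with a panel for each class, both as CPM on a log2(CPM + 1) axis, with triple-positive cells marked apart and dotted lines at 100 CPM. The 13 triple-positive cells lie at the upper right of the Vip, no-marker and Lamp5 panels, with Cnr1 of at least 2243 CPM and Cck of at least 1466 CPM, among 111 cells past both lines.

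By enhancer, triple-positive cells were 7 of 104 GABAergic cells in eHGT_017h (6.73%), 2 of 99 in eHGT_019h, 2 of 81 in eHGT_082h and 2 of 139 in hDLXI56i, and 0 in the other 7 enhancers. The share per eHGT_017h mouse was 2.78%, 3.70% and 12.2%, the last from 5 of 41 cells (exact 95% binomial interval 4.08% to 26.2%, counting error only). In 27 mice of the 9 enhancers with at least 2 mice of 10 or more GABAergic cells the shares did not pass the omnibus test (F = 2.09, permutation p = 0.0816). The eHGT_017h mice averaged 6.23%, against 0.776% in 25 mice of the other enhancers, a difference of 5.45 percentage points (2-sided exact permutation p = 0.00855, adjusted over 9 enhancers 0.0769). Both tests passed at thresholds of 10 CPM (adjusted p = 0.0247) and 30 CPM (0.022), with cells thinned to 100000 reads (0.022), with GABAergic cells taken by Gad1 or Gad2 at 100 CPM (0.0192) and without eHGT_019h mouse MouseID-400156 (0.00615). Without eHGT_017h mouse MouseID-410195 the difference was 2.46 points, and at a threshold of 300 CPM it was 1.36, with no call in either case. Among the mice with G libraries it was 5.15 points and neither test passed (omnibus permutation p = 0.247, adjusted exact permutation p = 0.126). Every enhancer with triple-positive cells had G libraries only.

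Within mice, Sncg cells were set against the other GABAergic cells of the same animal. Only 1 mouse had the planned 3 Sncg cells, so the 9 mice with at least 1 were used, a choice made after the data were seen. Most of these mice had a single Sncg cell, so the spread given over mice also holds that between cells. Cnr1 was 4011 ± 1173 CPM in Sncg cells and 272 ± 206 CPM in the others (SD, n = 9 mice), higher in 9 of 9 (2-sided exact sign-flip permutation p = 0.00391, the smallest that 9 mice can give). Against other cells outside the Pvalb and Sst classes it was 4053 ± 1247 and 521 ± 370 CPM, higher in 8 of 8 mice (exact p = 0.00781, the smallest possible). Here and below, that setting left out only these classes and kept the several-marker cells, most of them with both Pvalb and Sst. Cck was 4422 ± 3025 CPM in Sncg cells and 226 ± 173 CPM in the others, higher in 8 of 9 mice (exact p = 0.00781), and 4429 ± 3234 against 337 ± 275 CPM outside those classes, higher in 7 of 8 (exact p = 0.0156).

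For Cnr1 cells as a whole the difference in Cck did not pass the test. In 26 mice with at least 3 of them, Cck was 506 ± 696 CPM in 281 Cnr1 cells and 157 ± 122 CPM in other GABAergic cells, with a mean log2 difference of 0.23, higher in 15 of 26 mice (permutation p = 0.537). The sign turned at thresholds of 10 CPM (-0.47) and 30 CPM (-0.08) for Cnr1. Outside the Pvalb and Sst classes, in 9 mice, Cck was 1257 ± 955 CPM in Cnr1 cells and 180 ± 229 CPM in the others, higher in 6 of 9 (exact p = 0.0586). Inside the Pvalb class it was 240 ± 115 and 227 ± 102 CPM in 11 mice (exact p = 0.496, adjusted over 3 classes 0.75), and inside the Lamp5 class 552 ± 294 and 299 ± 256 CPM in 5 mice (exact p = 0.5, with 0.0625 the smallest possible). These class tests were added after the data were seen.

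Of the members not used to choose the triple-positive cells, both Cckbr and Dagla fell in them. The comparison took the 8 mice with at least 1 such cell, 13 cells in all and 5 of them from eHGT_017h mouse MouseID-410195, each against the other GABAergic cells of its mouse (limma with the mouse as a block). Most of these mice gave a single triple-positive cell, so the spread over mice also holds that between cells. Of 17173 genes, 0.961% were higher and 9.93% lower. The median log2 difference over all genes was -0.50, and 0.22 when log2 was taken per cell before averaging, where 3.97% were higher and 1.66% lower. Against other GABAergic cells outside the Pvalb and Sst classes 0.233% were higher and 1.32% lower. That reference still held several-marker cells, and averaged 483 ± 690 CPM of Sst and 219 ± 491 CPM of Pvalb. Cckbr was at 0 reads in all 13 cells, against 4.42 to 56.0 CPM with a median of 16.1 in the other cells (mean 21.8 ± 18.1). With 7579073 reads in the 13 cells, 3 reads would be 0.396 CPM, so Cckbr was at least 55.1-fold lower (adjusted p = 0.000444). Outside the Pvalb and Sst classes that call was lost (adjusted p = 0.196). Dagla was 0 to 3.81 CPM with a median of 0 in triple-positive cells and 6.35 to 18.5 CPM with a median of 14.3 in the others (mean 0.892 ± 1.40 against 13.6 ± 4.20, log2 difference -3.17, SE 0.52, adjusted p = 0.00191). These per-mouse ranges did not overlap, but they set mostly single cells against means of 18 to 45 cells. Dagla had reads in 794 of 1125 GABAergic cells and reached 10 CPM in 474, so single other cells did overlap. Dagla was also called per cell (-1.96, adjusted p = 0.0373) and outside the Pvalb and Sst classes (-2.77, adjusted p = 0.0494).

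The other enzymes gave no call and their ranges overlapped. Mgll was 149 to 381 CPM in triple-positive cells and 95 to 391 CPM in the others (mean 251 ± 76.0 against 190.4 ± 99.5, higher in 6 of 8 mice). Faah was 46.6 ± 26.9 against 56.6 ± 11.4 CPM and Napepld 9.62 ± 12.6 against 15.3 ± 5.81 CPM.

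**Figure D4:**
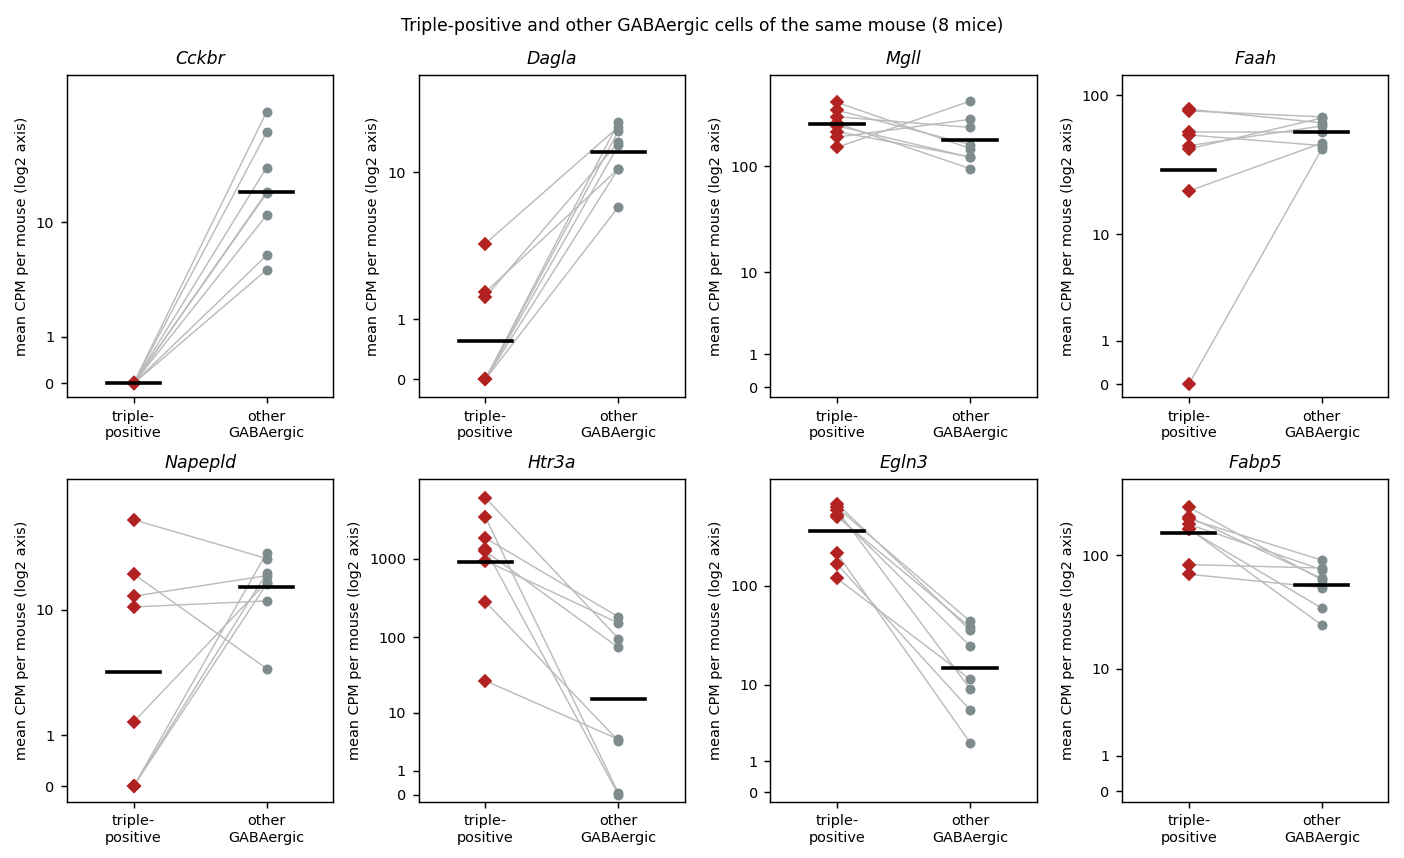
Mean CPM (log2(CPM + 1) axis) in triple-positive cells (left) and other GABAergic cells (right) of the same mouse, for 5 members and 3 other genes. Lines join the 2 values of each of 8 mice and black bars are the means of the log2 values. Cckbr is at 0 and Dagla at 3.81 CPM or less on the left in every mouse, while Mgll runs both up and down.

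In triple-positive cells 0.961% of all genes were higher and 9.93% lower, which stand beside each list count below. Of the pathway lists, synthesis genes had 1 higher and 2 lower of 8, breakdown and carriers 1 and 1 of 8, the cholecystokinin list 1 and 1 of 9, and receptors and partners 0 and 0 of 3. Fabp5 rose to 169 ± 64.5 CPM against 60.2 ± 22.2 (log2 difference 1.46, adjusted p = 0.00684) and Pcsk2 to 112 ± 39.5 against 52.2 ± 25.7 (1.20, adjusted p = 0.0285). Plcb4 rose to 154 ± 92.3 against 68.6 ± 27 CPM (1.03, adjusted p = 0.0403), while Plcb1 fell to 146 ± 54.3 against 285 ± 49.2 CPM (-1.02, adjusted p = 0.0025), a call lost per cell (-0.73). Except for Plcb1, these were lost outside the Pvalb and Sst classes, with adjusted p between 0.0797 and 0.238 and log2 differences of 1.10 for Fabp5, 1.15 for Pcsk2 and 0.84 for Plcb4. Of 11 tested genes listed for cortical Sncg cells other than Cck, Cnr1 and Sncg, 4 rose and 0 fell. They were Htr3a, Col14a1, Megf10 and Npas1, and 7 of 10 rose per cell, where 3.97% of all genes were higher. Outside the Pvalb and Sst classes, with 7 mice, 0 of 11 were called, and the log2 differences there were 4.21 for Htr3a (against 5.80), 2.99 for Col14a1 (2.96), 1.76 for Megf10 (2.83) and 2.94 for Npas1 (3.16). The list for cortical Sncg cells, with Cck, Cnr1 and Sncg included, also had 10 of 14 higher and 0 lower in the Vip class. There 5.39% of all genes were higher and 6.29% lower, and 8 of the 13 triple-positive cells were of that class. Of 7 Vip cell genes 1 rose and 1 fell in triple-positive cells, and 3 rose and 0 fell per cell. Pvalb cell genes had 0 higher and 5 lower of 7 and Sst cell genes 0 and 4 of 6, with Lhx6 at 0 reads and at least 287-fold lower.

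The 12 largest rises among named genes were led by Htr3a, at 27.1 to 5980 CPM in triple-positive cells and 0 to 181 CPM in the others (log2 difference 5.80, adjusted p = 0.0169), with overlapping ranges. Cadps2, a priming factor of dense-core vesicle release, was 647 ± 671 against 10.8 ± 19.1 CPM (5.53). Egln3, an oxygen-sensing prolyl hydroxylase gene, was 117 to 626 CPM against 2.03 to 44.5 CPM with no overlap (4.42, adjusted p = 9.70e-06). Cpne2, of the calcium-binding copines, was 111 to 639 CPM against 6.30 to 46.9 CPM (4.20, adjusted p = 6.26e-05), and Fxyd6, a regulator of the sodium pump, 2160 to 6699 CPM against 0.697 to 768 CPM (5.06), also without overlap. These ranges are over mice and set mostly single triple-positive cells against means of many cells. The others were Tnfaip8l3, Wnt5a, Pcdh20, Tns1, Sema3c, S100a10 and Fgf1, with log2 differences of 3.40 to 4.85. All 12 were called per cell and 7 outside the Pvalb and Sst classes, namely Cadps2, Wnt5a, Egln3, Pcdh20, Cpne2, S100a10 and Fgf1. The 6 falls were Nxph1 (26.7 ± 75.5 against 690 ± 118 CPM, -8.44), Mpped1, Rbp4, Crhbp, Ephx4 and Tac1. The last 3 were at 0 reads in the 13 cells and at least 1046-fold, 477-fold and 595-fold lower. Outside the Pvalb and Sst classes Nxph1, Mpped1, Ephx4 and Rbp4 were called and Crhbp and Tac1 were not, and Tac1 was not called per cell either.

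Markers of other cell types were read in the 15 cells with Sncg at 100 CPM. Both markers of oligodendrocyte precursors and 3 of 4 microglial markers were at 0 in all of them, and astrocyte markers summed to at most 240.5 CPM. Oligodendrocyte markers summed to a median of 66.7 CPM, against 12.6 CPM in the 1111 GABAergic cells with Sncg under 100 CPM. They reached 26155 CPM in 1 of the 15, and the highest sum among the 1111 was 41266 CPM. At least 2 of these markers reached 100 CPM in 1 of the 15 and in 10 of the 1111. The part of these markers in the result was not tested.

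Cck also divided the Pvalb class, the largest holder of Cck among GABAergic cells. In 19 mice, 346 Cck cells were set against the other Pvalb cells of the same mouse, a comparison added after the data were seen, in which 0.18% of 18328 genes were higher and 0.147% lower. Synpr, which encodes the vesicle protein synaptoporin, was 0 to 42.1 CPM with a median of 2.63 in Cck cells and 25 to 459 CPM with a median of 173 in the others, lower in 19 of 19 mice (mean 9.35 ± 12.6 against 175 ± 129, log2 difference -4.67, SE 0.42, adjusted p = 4.70e-07). From the list of Sst cell genes, Grin3a was 2.31 ± 2.50 against 18.4 ± 18 CPM (-2.27, adjusted p = 0.00216) and Elfn1 1.14 ± 2.73 against 6.58 ± 7.46 CPM (-1.74, adjusted p = 0.00729). These levels are near the floor, since 1 read in the median cell is 1.71 CPM. With a pseudocount of 10, 7 genes were called in place of 60. No member was called. Cckbr was 55.8 ± 12.7 against 44.4 ± 21.2 CPM (adjusted p = 0.435) and Cnr1 34.4 ± 22.3 against 27.6 ± 19.1 CPM (adjusted p = 0.402).

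**Figure D5:**
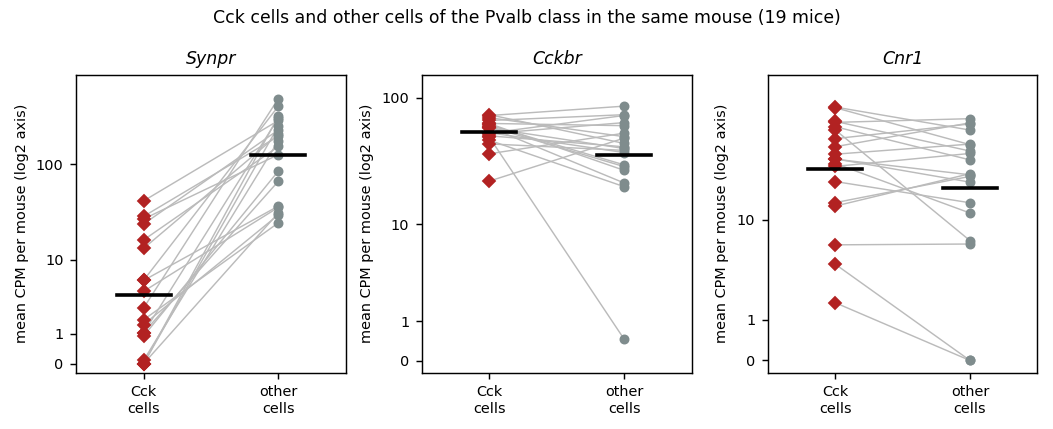
Mean CPM (log2(CPM + 1) axis) of Synpr, Cckbr and Cnr1 in Pvalb class cells with Cck at 100 CPM or more (left) and the other Pvalb class cells (right) of the same mouse. Lines join the values of each of 19 mice and black bars are the means of the log2 values. Synpr is lower in the Cck cells of all 19, and Cckbr and Cnr1 run both ways.

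In the Vip class the Cck split had 6 mice and 17 Cck cells. Cnr1 in Cck cells was 3408, 4694 and 3462 CPM in the eHGT_017h mice, 688 CPM in the eHGT_019h mouse, 1066 CPM in the eHGT_079h mouse and 1615 CPM in the hDLXI56i mouse. In the other Vip cells of the same mice it was 484, 410, 822, 958, 422 and 571 CPM. It was higher in the Cck cells of 5 of 6 mice (mean 2489 ± 1593 against 611 ± 228), but no gene of 14715 passed the adjustment (adjusted p = 0.868 for Cnr1, unadjusted p = 0.000882). In the Lamp5 class, with 6 mice and 53 Cck cells, 0 of 16745 genes passed, and Cnr1 was 235 CPM in Cck cells and 257 CPM in the others.

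By likeness over the 33 mice, among the 7599 genes whose mean was 20 CPM or more, Cck levels ran closest to Olfm1 (Pearson r = 0.90), Mapk4 (0.89), Klhl2 (0.88), Srr (0.87) and Tenm3 (0.87). Cnr1 ran closest to Adra1b (0.88), Rgs12 (0.87), Rgmb (0.85), Sema3c (0.85) and Cacnb2 (0.84). Sncg ran closest to Htr3a (0.83), Cnr1 (0.77), Grik2 (0.74), Dzip3 (0.74) and Tac2 (0.74). The mice fall into enhancer groups, so these values describe likeness of levels across those groups and were not tested.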

How the data were processed

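The deposited table gives CPM per cell, which the authors computed so that each cell sums to 1000000. STAR and mm10 are named, with no version or role, in the submitters' processing notes. The counting program, annotation and cell filters: not given in the sources used here. Every value above 0 came out as a whole number of reads (tolerance 0.01 read), which gave back each cell's reads, and intervals and floors cover counting error only, since reads carry no molecular identifiers. All cells entered, and no doublet caller was run. Cells with 833 to 1018510 reads were kept, 16 of them under 100000.

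CPM were averaged per mouse, or per class and mouse (at least 5 cells), and log2(mean CPM + 1) was fitted with limma 3.58.1 (trend and robust, statmod 1.5.0, R 4.3.3) over genes that reached 1 CPM in 2 or more profiles. P-values were adjusted by Benjamini-Hochberg over all genes tested. In class fits the mouse was a random block (correlation 0.0727). Classes are compared within the same table, and an average over other groups is unweighted. Permutation tests over mice used python 3.11.15 with numpy 2.4.6 and pandas 2.3.3, and figures matplotlib 3.10.9. The tools also included scipy 1.17.1, which these tests did not call. The fits were tested on simulated data. As a check that uses counting error, limma's voom was run on reads summed per mouse, and its omnibus test called 9411 of 18932 genes (49.7%) and 6 of the 8 members. The labels name separate mice, and the p-values measure the spread between them. In the comparisons of Sncg cells and of triple-positive cells most mice gave a single such cell. There the spread between mice also holds the spread between single cells.

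The members, classes and gene lists were chosen with earlier results of these data known. Genes named besides the 8 members were those of the lists that were called (at most 4 per list and comparison), the 5 genes most like Cck, Cnr1 and Sncg, and the 12 largest rises and 6 largest falls in triple-positive cells with a mean of at least 20 CPM and the same sign in every mouse. Some genes that these rules name are not reported here. Sequences are RefSeq's on GRCm38.p6, matched by symbol for 8 of 8 members.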

Additional observations from a re-analysis of the deposited data

Results flagged for a closer look

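A Dixon test for a sample far from the rest was run on 53 groups of 4 to 10 mice and marked 6 values, where chance marks about 1 group in 20. Napepld in eHGT_064h mouse MouseID-468100 was 24.9 CPM, against 11.6 to 13 CPM in the other 3 mice. In the Lamp5 class, Sncg in eHGT_019h mouse MouseID-400156 was 21.4 CPM, against 0 to 0.313 CPM in the other mice, and that mouse held the 1 Lamp5 cell with Cck, Cnr1 and Sncg together. In cells with both Gad and Slc17a7, eHGT_017h mouse MouseID-406074 had 1509 CPM of Cck, against 304 to 394 CPM in the other 3 mice, and 97.0 CPM of Sncg, against 0 in the others. In the same cells Dagla in eHGT_019h mouse MouseID-392043 was 28.5 CPM, against 7.30 to 10.4 CPM. The log2 difference of Cck between Sncg cells and other GABAergic cells was -3.62 in eHGT_019h mouse MouseID-401668, against 5.85 to 10.9 in the other 8 mice, and that mouse's single Sncg cell is the one with 0 CPM of Cck.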

How the results depend on the processing

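Differences of single genes kept their direction and side of the threshold in 547 gene-by-alternative values and lost the call in 43. When a mouse was left out, 2582 kept it, 53 lost it and 4 gained it. The count of members called between classes was 8, and 5 with profiles of at least 10 cells. Genes called in triple-positive cells numbered 1871, and 3246 with a pseudocount of 0.1, 716 with 10, 1083 without the filter, 1013 at 300 CPM for the 3 genes, 260 against cells outside the Pvalb and Sst classes, 790 with log2 per cell, and 1424 to 1897 without 1 mouse. Cck cells of the Pvalb class had 60 genes called, 7 with a pseudocount of 10, and 39 to 72 without 1 mouse, the lowest without eHGT_079h mouse MouseID-473544. Those of the Lamp5 class had 0, and 0 to 2 without 1 mouse. Members called between enhancers within the Pvalb, Sst and several-marker classes were 0, and 0 to 3 without 1 mouse. For triple-positive shares F was 2.09, and 3.64 at 10 CPM, 3.04 at 30 CPM, 3.65 with Gad1 or Gad2 at 100 CPM, 3.10 after thinning and 1.43 to 3.89 without 1 mouse. The eHGT_017h difference of 5.45 points was 6.59, 6.68, 6.12 and 6.88 in the same order, and 2.46 to 7.17 without 1 mouse. Among the mice with G libraries F was 1.33 and the difference 5.15 points, and at 300 CPM they were 1.16 and 1.36. The log2 difference of Cck in Cnr1 cells was 0.231, turned to -0.473 at 10 CPM and -0.077 at 30 CPM, and was 0.106 to 0.381 without 1 mouse. For these changes the cause was not tested. No paired analysis was possible because mice of different enhancers share no number, while cells within a mouse were compared as pairs by animal. In a cell of median depth 1 read is 1.71 CPM, so low levels of Dagla and Napepld rest on few reads per cell, and the triple-positive cells number 13.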
